A study of Mus musculus with 6 samples.

Results

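The genes described here are markers of the endothelial, fibroblast, mural and mesothelial cells of the lung, read in libraries that were made from sorted alveolar type II (AT2) cells. The list holds 33 gene symbols, of which 31 are among the 24224 genes of the deposited count table: 12 of the 13 endothelial symbols, 8 of the 9 fibroblast symbols, all 6 mural symbols and all 5 mesothelial symbols. *Emcn* and *Postn* were not analysed here. The genes were picked by symbol as cell type markers, after the counts of these libraries at both ages were known, so the difference between the ages is given below as a description and nothing is supported by it. AT2 cells are the surfactant-producing cells of the alveolus. They were isolated from enzymatically digested lungs of naturally aged wild-type (WT) C57BL/6J mice at 3 m and at 24 m, with no further treatment, by flow sorting of living cells that were CD45- CD31- CD326+ MHCII+. Each age has 3 biological replicates, each from a pool of several mice, giving 6 libraries. Library totals lay between 28827930 and 32394985 counts.

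The gate bears directly on the genes described here. CD31 is the protein of *Pecam1*, an adhesion molecule of endothelial cells, and cells that carried it on their surface were removed, as were leukocytes through CD45, the protein of *Ptprc*. Fibroblasts, mural cells and mesothelial cells had no negative marker of their own in the gate. They were to be left out because a sorted cell had to carry both CD326, the epithelial adhesion molecule encoded by *Epcam*, and MHCII. In bulk RNA, fewer cells of a type and less RNA per cell cannot be told apart.

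In the intact lung these cells surround the alveolar epithelium. Endothelial cells line the capillaries and larger vessels and are held together by VE-cadherin (*Cdh5*) and claudin 5 (*Cldn5*), and they respond to vascular endothelial growth factor and to angiopoietins through the receptors *Kdr*, *Tek* and *Tie1*. Fibroblasts lay down the collagen and proteoglycan matrix of the alveolar wall. Mural cells, the pericytes and smooth muscle cells of vessels and airways, carry the contractile proteins *Acta2*, *Myh11* and *Tagln*. Mesothelial cells form the pleural surface and carry mesothelin (*Msln*).

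Promoter sequence is shown for 5 genes whose libraries form the main patterns below. *Tie1* had no count at 3 m, *Kdr* was counted in 1 of the 3 m libraries, *Tek* was counted in every library, and *Acta2* and *Cnn3* had no count at 3 m and counts in every 24 m library. The RefSeq promoter table (build GRCm38.p6, a different build from that of the counts) matched 17 of the 31 genes, and the 120 bases before the annotated start are given 5′ to 3′ on the strand of the gene. In the first 3, capitals mark GGAA or its reverse complement TTCC, the core bound by ETS transcription factors, which many endothelial genes use.
Tie1, chr4:118489850-118489969, minus strand: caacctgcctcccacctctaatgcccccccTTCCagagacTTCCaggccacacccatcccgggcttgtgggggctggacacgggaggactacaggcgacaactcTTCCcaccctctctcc
Kdr, chr5:75978456-75978575, minus strand: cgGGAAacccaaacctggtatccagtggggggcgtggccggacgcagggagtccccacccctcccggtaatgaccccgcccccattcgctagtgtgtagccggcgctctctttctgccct
Tek, chr4:94739169-94739288, plus strand: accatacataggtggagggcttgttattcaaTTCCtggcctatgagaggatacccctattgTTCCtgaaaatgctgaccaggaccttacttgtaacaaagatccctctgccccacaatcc
In the other 2, capitals mark CC and GG with 6 bases of any kind between them, the outline of the CArG box bound by serum response factor in smooth muscle genes.
Acta2, chr19:34255374-34255493, minus strand: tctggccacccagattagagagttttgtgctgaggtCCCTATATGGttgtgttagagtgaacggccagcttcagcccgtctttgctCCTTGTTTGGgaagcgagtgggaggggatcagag
Cnn3, chr3:121426421-121426540, plus strand: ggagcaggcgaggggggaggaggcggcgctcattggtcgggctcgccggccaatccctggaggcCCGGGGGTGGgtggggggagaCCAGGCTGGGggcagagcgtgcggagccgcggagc
The scan read both strands and allowed matches to overlap. It found 3 matches to the ETS core before *Tie1*, 1 before *Kdr* and 2 before *Tek*. The same core was found in 73.4% of 32851 promoter windows of this length, so its presence does not set these genes apart. The CArG outline was found 2 times before *Acta2* and 2 times before *Cnn3*, and in 46.9% of all windows. The inner bases are mostly A and T in both *Acta2* matches and mostly G and C in both *Cnn3* matches. These are matches of letters only.

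Across the 31 genes the number with at least 1 count was 9, 7 and 16 in 3 m replicates 1, 2 and 3, and 26, 26 and 30 in 24 m replicates 1, 2 and 3. All 24 m libraries therefore held counts for more of the markers than any 3 m library. No count at all was found at 3 m for 13 of the 31 genes, against 19.5% of all genes in the table, and 8 of those 13 were counted in every 24 m library. A further 7 genes were absent from 3 m replicates 1 and 2 and present in 3 m replicate 3. The share of all genes with either of these last patterns is not given here. Neither count is therefore read as a result about the markers. No marker was absent from all 24 m libraries. On the CPM scale (counts over library size, corrected with TMM factors), 28 of the 31 had a mean under 10 CPM at both ages, so most of what follows concerns low levels.

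**Figure D1:**
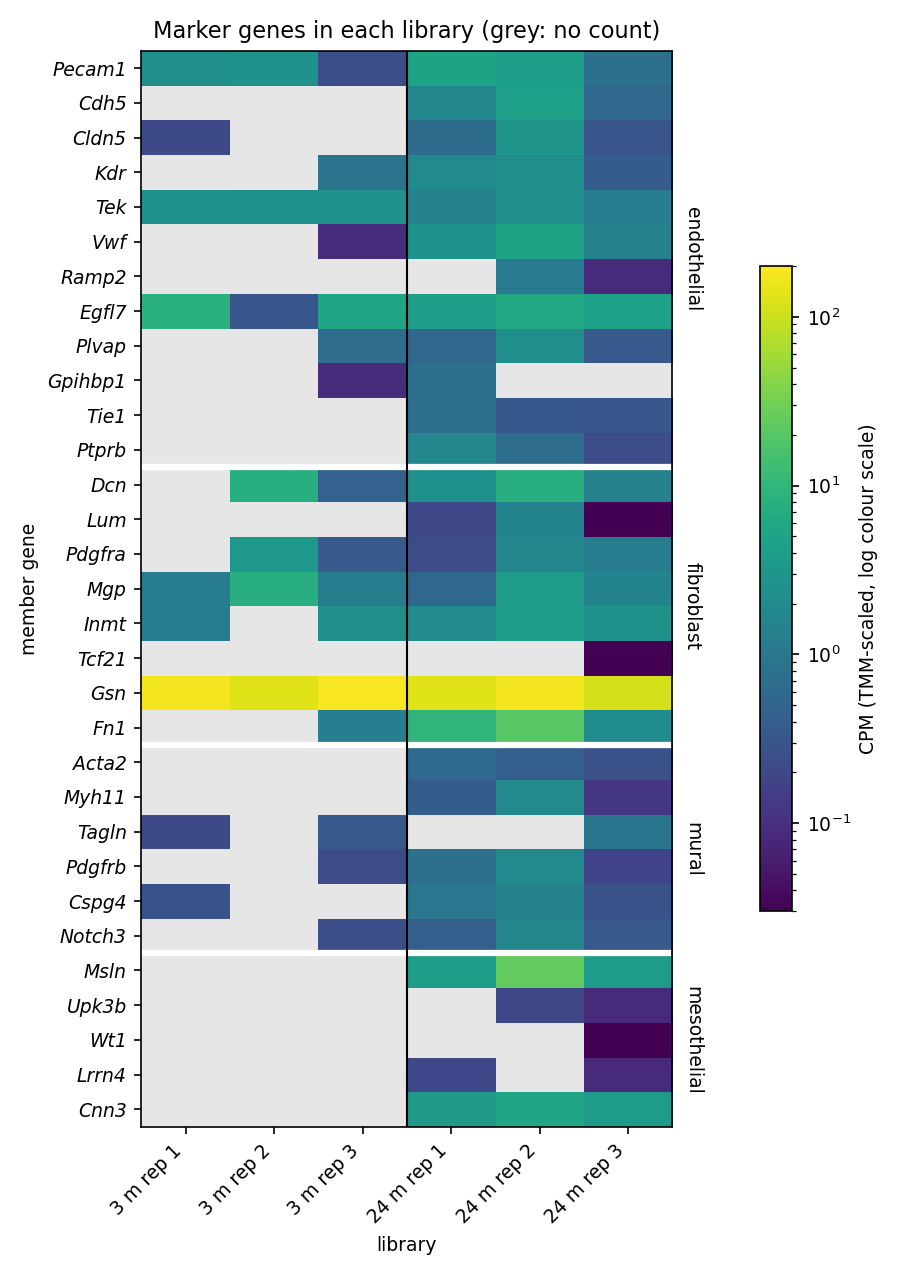
Level of each of the 31 marker genes (rows, grouped by cell type) in the 6 libraries (columns), in CPM on a log colour scale, with grey for no count. The 3 m columns hold 9, 7 and 16 coloured cells and the 24 m columns 26, 26 and 30, and *Gsn* is the only row above 100 CPM.

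The libraries also differed in how many genes of any kind they detected. The whole table had 16356, 13430 and 17645 genes with a count in the 3 m libraries and 17535, 17531 and 21836 in the 24 m libraries, although totals were alike. Among the 2793 genes with a mean of 0.5 to 2 CPM over the 6 libraries, 21.8%, 52.0% and 11.9% had no count in 3 m replicates 1, 2 and 3, against 10.2%, 12.3% and 1.86% at 24 m. The 8 marker genes with such a mean were at 0 for 6, 7 and 3 genes in the same 3 m libraries and for 0 genes in each 24 m library. In 3 m replicate 2, 22.9% of the 1602 genes with a mean of 2 to 5 CPM were at 0, and in 24 m replicate 3, 4900 genes had 1 to 5 counts, more than in any other library. The part of this detection gap in the marker values was not tested.

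**Figure D2:**
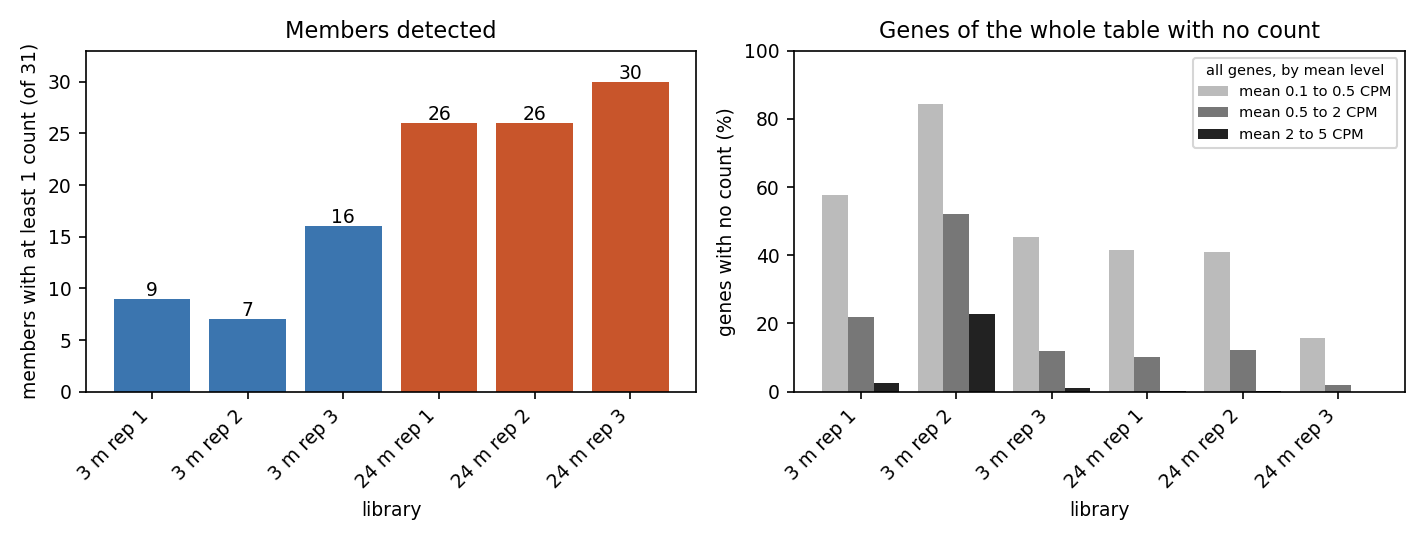
Left, number of the 31 marker genes with at least 1 count in each library. Right, percentage of all genes in the table with no count, by the mean level of the gene over the 6 libraries; 3 m replicate 2 had the highest share in every class (52.0% at 0.5 to 2 CPM) and 24 m replicate 3 the lowest (1.86%).

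Per gene, the test over the whole table was edgeR's quasi-likelihood test with Benjamini-Hochberg adjustment, and a gene was called where the adjusted p was under 0.05 and the log2 fold change exceeded 1 in size. It tested 17 of the 31 markers, the other 14 being too low for its filter, and it called 0 of 14899 genes (0%), and so 0 markers. At unadjusted p under 0.05 it had 873 genes, 6 of them markers. DESeq2, run as the alternative, called 286 of 17509 genes higher at 24 m (1.63%) and 28 lower (0.160%). Its calls held 5 markers higher, *Cdh5*, *Vwf*, *Ptprb*, *Msln* and *Cnn3*, and 0 lower, and it gave no adjusted p for *Wt1*, *Lrrn4*, *Upk3b* and *Tcf21*. Every 24 m library lay above every 3 m library for 12 of the 31 markers, against 8.00% of all genes, and below for 1, against 3.50%. Because the list was drawn up with the age contrast known, these counts are not read against the background.

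Cell-junction genes of the endothelium came first in the list. *Pecam1* stood at 2.41, 2.70 and 0.253 CPM in 3 m replicates 1, 2 and 3 and at 5.02, 4.12 and 0.773 CPM in 24 m replicates 1, 2 and 3. Its ages overlapped, with replicate 3 the lowest library at both ages and a mean of 1.79 ± 1.34 CPM at 3 m against 3.31 ± 2.24 CPM at 24 m (SD, n = 3). *Cdh5*, the adhesion molecule of endothelial junctions, had no count in any 3 m library and 1.72, 4.29 and 0.565 CPM at 24 m. With 3 counts taken as the limit that 0 allows over the 3 m libraries (0.0338 CPM), it was at least 64.9-fold higher at 24 m, or at least 33.8-fold without 24 m replicate 2. Here and below, such bounds allow for counting error at 3 m only. They do not allow for the spread between libraries or for the detection gap described above, so they are not firm lower bounds. edgeR gave *Cdh5* an adjusted p of 0.428 and DESeq2 an adjusted p of 0.000273. The DESeq2 call was lost without 24 m replicate 2, at an adjusted p of 0.294, the highest of the runs that each left out 1 library. *Cldn5* had 0.206, 0 and 0 CPM at 3 m and 0.674, 2.98 and 0.297 CPM at 24 m, a 19.2-fold ratio of means that rests on a single 3 m library with 6 counts and was 7.07 without 24 m replicate 2.

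The angiopoietin and VEGF receptors, whose promoters are printed above, went separate ways. *Tek*, the angiopoietin receptor, was counted at 2.75, 2.45 and 2.72 CPM at 3 m and at 1.48, 2.31 and 1.28 CPM at 24 m. It was the only marker lower in every 24 m library, with means of 2.64 ± 0.162 and 1.69 ± 0.546 CPM (SD, n = 3), a ratio of 0.640 that passed neither test. edgeR's adjusted p was 0.882. *Tie1*, its co-receptor, had no count at 3 m, against 0.742, 0.335 and 0.327 CPM at 24 m. That is a difference of at least 13.9-fold, or 9.80-fold without 24 m replicate 1. *Kdr*, the main signalling receptor for VEGF, was at 0, 0 and 0.885 CPM at 3 m and at 2.02, 2.38 and 0.386 CPM at 24 m. Its ages overlapped, since 3 m replicate 3 exceeded 24 m replicate 3. *Ptprb*, the endothelial phosphatase that acts on Tie2 and VE-cadherin, had no count at 3 m, compared with 1.79, 0.703 and 0.238 CPM at 24 m, a difference of at least 26.9-fold, or 13.9-fold without 24 m replicate 1. DESeq2's adjusted p for it was 0.0403, and the call held in 1 of the 6 runs that left out 1 library each, with the adjusted p reaching 0.503 without 24 m replicate 2.

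Secreted and capillary genes of the endothelium completed the class. *Vwf*, the clotting factor that endothelial cells store, had 0, 0 and 0.0948 CPM at 3 m and 2.63, 4.92 and 1.46 CPM at 24 m. The 3 m value rests on 3 counts, and the ratio of 87.1 has an exact 95% counting interval of 29.5 to 425, which covers counting error only. edgeR's adjusted p was 0.442, and DESeq2's was 0.000273, rising to 0.158 without 24 m replicate 2. *Egfl7*, a secreted protein of endothelial cells that also hosts a microRNA, stood at 8.35, 0.320 and 5.47 CPM at 3 m and 4.08, 6.09 and 4.64 CPM at 24 m. It moved by less than the spread between replicates, with 3 m replicate 2 far below the rest. An exon of *Egfl7* shares 125 bases with *Gm20532* on the same strand, so its reads could belong to either. *Plvap*, the diaphragm protein of fenestrae and caveolae, had 0, 0 and 0.695 CPM at 3 m and 0.540, 2.41 and 0.357 CPM at 24 m. *Ramp2*, a co-receptor for adrenomedullin, was counted in 24 m replicates 2 and 3 only, at 1.17 and 0.0891 CPM. *Gpihbp1*, which carries lipoprotein lipase across capillary endothelium, was counted in 3 m replicate 3 (0.0948 CPM, 3 counts) and 24 m replicate 1 (0.776 CPM), a ratio of 7.31 with a counting interval of 2.21 to 38.0.

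Summed over the 12 genes, the endothelial level was 13.7, 5.48 and 10.2 CPM at 3 m and 21.5, 31.7 and 10.4 CPM at 24 m, so that 24 m replicate 3 fell inside the 3 m range. The make-up of that sum also differed. *Egfl7*, *Tek* and *Pecam1* supplied 98.5%, 100% and 82.7% of it in 3 m replicates 1, 2 and 3, and 49.3%, 39.5% and 64.3% at 24 m. The other 9 genes together stood at 0.206, 0 and 1.77 CPM at 3 m and at 10.9, 19.2 and 3.71 CPM at 24 m, with no overlap. This split of the class was made after its values were seen. Ranked by FPKM, the 12 genes gave a Spearman's rho of 0.54 to 0.87 between libraries of the same age and 0.25 to 0.76 between ages. Only 4, 3 and 7 of the 12 were counted in 3 m replicates 1, 2 and 3. Genes tied at 0 therefore enter rho, which is not read as a likeness of order. Genes are not independent replicates, and the ranges of rho overlap.

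**Figure D3:**
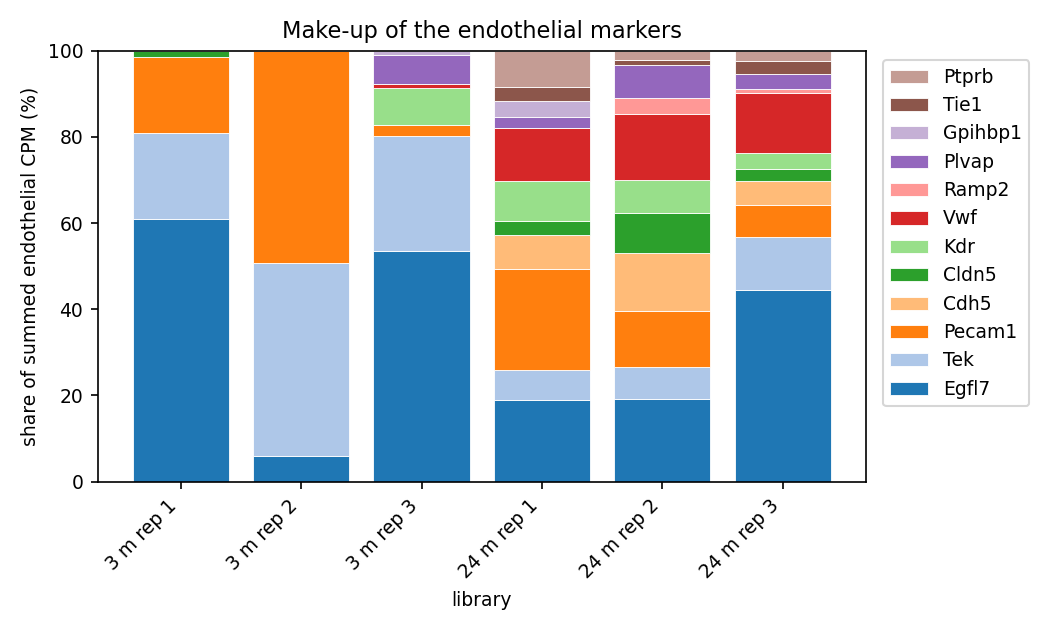
Share of the summed endothelial CPM taken by each of the 12 endothelial markers in each library, in percent. *Egfl7*, *Tek* and *Pecam1*, stacked at the bottom, reach 98.5%, 100% and 82.7% at 3 m and 49.3%, 39.5% and 64.3% at 24 m.

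Among the fibroblast genes, *Gsn* stood apart. It encodes gelsolin, an actin-severing protein that many cell types make, and it was at 174, 130 and 185 CPM at 3 m and 131, 171 and 115 CPM at 24 m. Its means were 163 ± 28.8 and 139 ± 28.8 CPM (SD, n = 3), a difference within the spread between replicates. Per length, in the FPKM of the deposited table, *Gsn* reached 48.7% to 76.4% of the level of *Epcam* in each library, and its median of 47.2 FPKM compares with 1.47 FPKM for the next marker, *Egfl7*. *Gsn* supplied between 81.5% and 98.6% of the summed fibroblast CPM of each library. That sum, 176, 149 and 191 CPM at 3 m and 146, 210 and 124 CPM at 24 m, thus mainly restates *Gsn*.

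The matrix genes varied between libraries without a common direction. *Dcn*, the collagen-binding proteoglycan decorin, was at 0, 7.68 and 0.474 CPM at 3 m and 2.46, 7.50 and 1.43 CPM at 24 m. *Mgp*, matrix Gla protein, an inhibitor of calcification, was at 1.27, 7.54 and 1.20 CPM at 3 m and 0.573, 3.92 and 1.57 CPM at 24 m. *Pdgfra*, the receptor that marks alveolar fibroblasts, was at 0, 3.31 and 0.379 CPM at 3 m and 0.236, 1.71 and 1.25 CPM at 24 m. These 3 genes were highest among the 3 m libraries in replicate 2, the library in which most other markers were absent, and highest among the 24 m libraries also in replicate 2. Their ages overlapped. *Inmt*, a methyltransferase abundant in lung fibroblasts, showed the opposite at 3 m, with 1.24, 0 and 2.34 CPM, and stood at 2.12, 3.72 and 2.76 CPM at 24 m. Exons of *Pdgfra* overlap *Gm42802* on the other strand by 341 bases. The strand setting of the counting is not given in the sources used here, so reads of overlapping genes cannot be told apart, which also holds for *Fn1*, *Notch3*, *Tagln* and *Cnn3* below.

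A pair of matrix genes was higher in every 24 m library. *Fn1*, fibronectin, which macrophages and other cells also make, had 0, 0 and 1.30 CPM at 3 m and 9.65, 20.4 and 2.14 CPM at 24 m. The ratio of means was 24.8, with 24 m replicate 2 the highest library and 24 m replicate 3 close to the 3 m library that held counts. It passed neither edgeR's test (adjusted p = 0.818) nor that of DESeq2. *Lum*, lumican, a collagen-binding proteoglycan like decorin, had no count at 3 m, against 0.202, 1.57 and 0.0297 CPM at 24 m, the last being 1 count, and was at least 17.8-fold higher, or at least 3.44-fold without 24 m replicate 2. The *Fn1* ratio was 13.6 without that library. *Tcf21*, a transcription factor of lung fibroblasts, had 1 count in all, in 24 m replicate 3. Leaving *Gsn* out, the fibroblast genes summed to 2.51, 18.5 and 5.69 CPM at 3 m and 15.2, 38.8 and 9.21 CPM at 24 m, with the ages overlapping.

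The contractile genes of the mural class were low in every library. *Acta2*, smooth muscle actin, had no count at 3 m, compared with 0.607, 0.435 and 0.267 CPM at 24 m, which are 18, 13 and 9 counts. *Myh11*, smooth muscle myosin, had no count at 3 m, against 0.405, 1.91 and 0.119 CPM at 24 m. They were at least 12.9-fold and 24.0-fold higher at 24 m, and the bound for *Myh11* was 7.75-fold without 24 m replicate 2. The bound for *Acta2* was 10.4-fold without 24 m replicate 1. *Myh11* missed DESeq2's threshold with an adjusted p of 0.0885. *Tagln*, the actin-binding protein transgelin, did not follow them, with 0.206, 0 and 0.348 CPM at 3 m and 0, 0 and 0.921 CPM at 24 m. Its exons overlap *Pcsk7* and *Gm48529* on the opposite strand, by 94 and 404 bases.

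The pericyte genes were counted in few 3 m libraries and in all 24 m libraries. *Pdgfrb*, the receptor through which pericytes are recruited to vessels, had 0, 0 and 0.221 CPM at 3 m and 0.776, 1.98 and 0.178 CPM at 24 m. *Cspg4*, the pericyte proteoglycan NG2, had 0.275, 0 and 0 CPM at 3 m and 0.944, 1.54 and 0.267 CPM at 24 m. *Notch3*, a Notch receptor of mural cells, had 0, 0 and 0.253 CPM at 3 m and 0.438, 1.64 and 0.357 CPM at 24 m. *Notch3* was the only one of the 3 whose ages did not overlap. Summed over the 6 mural genes, the level was 0.481, 0 and 0.822 CPM at 3 m and 3.17, 7.50 and 2.11 CPM at 24 m. edgeR's filter kept *Notch3* alone of the class (adjusted p = 0.830).

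All 5 mesothelial genes were without a count in every 3 m library. *Msln* (ENSMUSG00000063011), the surface protein mesothelin, had 121, 710 and 127 counts at 24 m, or 4.08, 23.8 and 3.77 CPM. It was at least 312-fold higher at 24 m, with 24 m replicate 2 well above the other two libraries, and at least 116-fold higher without that library. *Cnn3* (ENSMUSG00000053931), an actin-binding calponin that is also made by other non-muscle cells, had 102, 159 and 125 counts, or 3.44, 5.32 and 3.71 CPM. It was at least 123-fold higher, or 106-fold without 24 m replicate 2, and varied little between the 24 m libraries, with a mean of 4.16 ± 1.02 CPM (SD, n = 3). edgeR gave both an adjusted p of 0.220 and called both once 3 m replicate 2 was left out, at an adjusted p of 0.0194 for *Msln* and 0.0121 for *Cnn3*. DESeq2 called both with all libraries, at an adjusted p of 1.41e-09 and 5.83e-08, and in each of the 6 runs without 1 library.

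The other mesothelial markers were at the edge of detection. *Upk3b*, a uroplakin of the mesothelium, had 6 and 3 counts in 24 m replicates 2 and 3. *Lrrn4*, a leucine-rich repeat protein of mesothelial cells, had 6 and 3 counts in 24 m replicates 1 and 3. *Wt1*, the transcription factor of the mesothelium, had 1 count, in 24 m replicate 3. Summed over the class, the 24 m libraries stood at 7.72, 29.3 and 7.70 CPM, nearly all of it *Msln* and *Cnn3*. The class sum thus rests on these 2 genes, while *Upk3b*, *Lrrn4* and *Wt1* held 0 to 6 counts in a library.

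**Figure D4:**
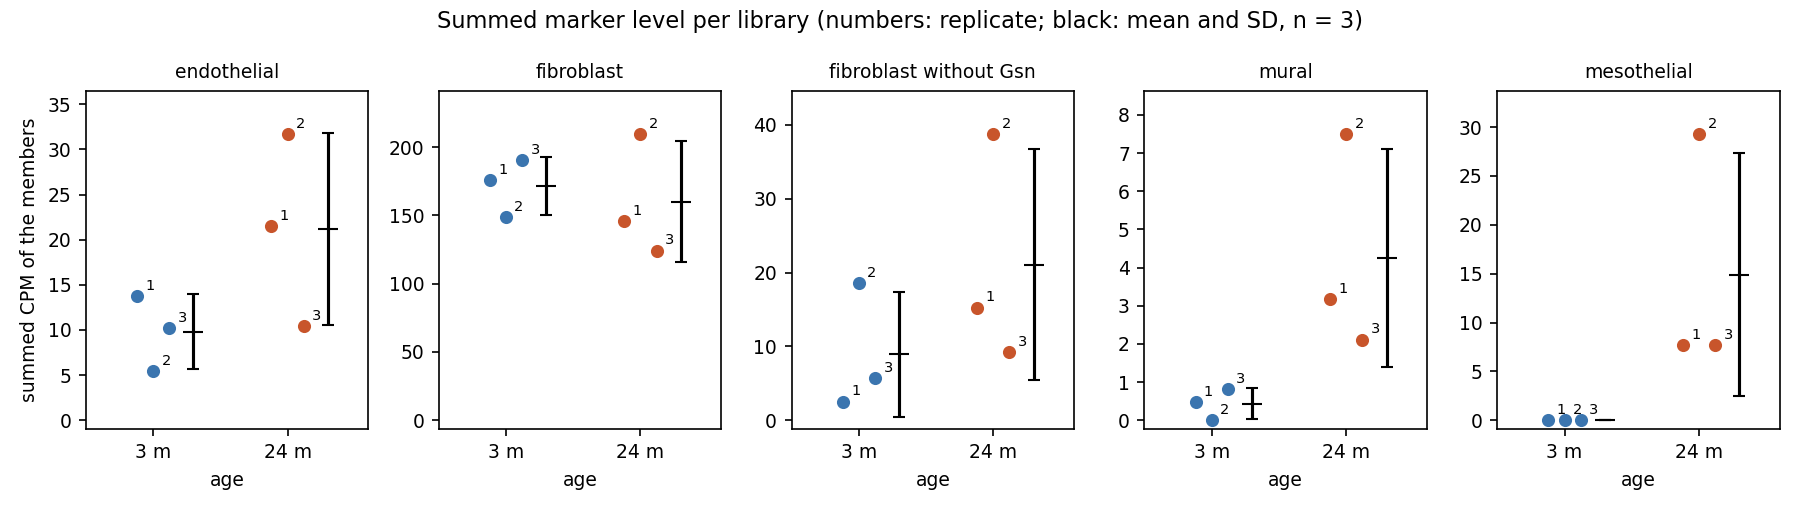
Summed CPM of the marker genes of each class in each library (linear axes, a separate scale for each panel), with the mean and SD of 3 libraries in black; the fibroblast class is shown with and without *Gsn*. The mural and mesothelial sums do not overlap between the ages, the endothelial and fibroblast sums do, and 24 m replicate 2 is the highest library in every panel.

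24 m replicate 2 carried the highest levels. Of the 31 markers, 16 were highest in it among all 6 libraries, against 17.8% of all genes, and 22 were highest in it among the 24 m libraries, against 30.9% of the 23232 genes counted at 24 m. Markers of other cells were also highest there: 15 of 16 leukocyte markers and all 8 airway epithelial markers. The leukocyte markers included *Ptprc*, at 0, 0 and 0.190 CPM at 3 m and 3.44, 9.58 and 2.38 CPM at 24 m, although CD45+ cells had been gated out. Of the 16 leukocyte markers, 9 were higher in every 24 m library, against 8.00% of all genes, and DESeq2 called 6 higher, against 1.63%. Their sum was dominated by *Lcp1*, at 252 to 343 CPM in every library, and came to 328, 270 and 292 CPM at 3 m and 371, 468 and 269 CPM at 24 m, with overlap. The next most abundant, *Coro1a*, *Csf1r* and *Laptm5*, ran from 0 to 4.36 CPM at 3 m and from 1.40 to 17.9 CPM at 24 m. The airway epithelial markers summed to 761, 777 and 349 CPM at 3 m and 914, 1364 and 682 CPM at 24 m, mostly *Scgb1a1*, a club cell protein whose ages overlapped. Of these 8 markers, 5 were higher in every 24 m library and DESeq2 called 4, *Scgb3a1*, *Scgb3a2*, *Muc5b* and *Cyp2f2*. *Scgb3a1*, a secretory protein of the airway, had a 3 m mean of 0.757 ± 0.775 CPM against 69.4 ± 42.9 CPM (SD, n = 3) in the older libraries. *Cyp2f2*, a club cell oxygenase, had means of 50.2 ± 29.4 and 149.8 ± 17.4 CPM. Without replicate 2 of both ages, a choice made after seeing the data, 14 markers were higher in every remaining 24 m library, against 17.5% of all genes. The part of other cell types in the marker values was not tested.

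The markers can be set against the sorted epithelium. *Epcam* lay between 123 and 198 CPM in all libraries, and *Sftpc*, the surfactant protein of AT2 cells, between 51300 and 138977 CPM. Per length, *Pecam1* amounted to 0.429%, 0.772% and 0.0530% of *Epcam* at 3 m and 0.981%, 0.917% and 0.166% at 24 m. *Msln* amounted to 1.62%, 10.8% and 1.65% of *Epcam* in the 24 m libraries. In the order of median FPKM, *Gsn* was followed by *Egfl7* (1.47), *Inmt* (1.45) and *Mgp* (1.22), the only 4 markers with a median above 1 FPKM over the 6 libraries, then by *Msln* (0.640), *Cnn3* (0.583), *Tek* (0.491) and *Pecam1* (0.383). The values of *Msln* and *Cnn3* are medians over both ages and describe neither: both were at 0 FPKM in every 3 m library and had medians of 1.37 and 1.27 FPKM at 24 m. The FPKM ranges of *Egfl7*, *Inmt* and *Mgp* overlapped, as did those from *Msln* to *Pecam1*, so neighbours in this order did not differ beyond their spread. The median was above 0 for 25 markers and 0 for 6.

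Other markers of the same cell types, listed beside the 31 genes, gave a mixed account. The counts below stand beside 8.00% of all genes higher in every 24 m library, 3.50% lower in every one and 1.63% called higher by DESeq2. Of 20 endothelial companions, 7 were higher in every 24 m library and 0 lower, and DESeq2 called *Flt1* and *Car4*. *Car4*, a carbonic anhydrase of lung capillaries, had no count at 3 m, compared with 1.69, 7.60 and 0.178 CPM at 24 m. The most abundant, *Esam*, an adhesion molecule of endothelial junctions, was at 70.8 to 163 CPM at both ages, followed by *Rasip1* (2.68 to 6.33 CPM) and *Podxl* (0 to 3.65 CPM). Of 6 lymphatic markers, all were highest in 24 m replicate 2, where they summed to 2.61 CPM against 0 to 0.411 CPM in the other libraries. Of 26 fibroblast companions, 5 were higher in every 24 m library and 0 lower, and DESeq2 called 0 of them. Of 14 mural companions, 1 was higher in every 24 m library. Of 12 mesothelial companions, 4 were higher and 1, *Gpc3*, was lower in every 24 m library. DESeq2 called 0 of the mural and 0 of the mesothelial companions. The companion lists were led by genes that were abundant at both ages: *Ces1d*, *Col6a1*, *Npnt* and *Col6a2* among fibroblast genes, *Mylk* and *Itga7* among mural genes, and *Krt8*, *Krt18*, *Efemp1* and *Krt19* among mesothelial genes, each at 20.9 CPM or more in every library. Of these leading genes, *Col6a1*, *Col6a2*, *Itga7* and *Krt8* were higher in every 24 m library and are part of the counts above. The ages of the others overlapped. The keratins *Krt8* and *Krt18* are also made by alveolar epithelium.

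Over the 31 markers, the median log2 ratio of 24 m to 3 m, with ages below 3 counts set to that limit, was 2.94, against 0.02 over all genes. The 2 medians are not read against each other. The list was drawn up with the age contrast known, and 13 of the markers had no count at 3 m. A mean under 10 CPM at both ages held for 28 of the 31 markers, whereas the value over all genes includes genes of every level. By class the median was 3.29 for the endothelial genes, 0.21 for the fibroblast genes, 3.51 for the mural genes and 1.52 for the mesothelial genes. In the mesothelial class *Upk3b* and *Lrrn4* stood little above the limit and *Wt1* below it.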

How the data were processed

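RNA-seq was carried out on 6 libraries of sorted AT2 cells, 3 per age, and groups were taken from the sample titles. The deposited counts are whole numbers per gene with no normalization. HISAT2 and featureCounts, the build GRCm39 and DESeq2 are listed in the processing notes of the submitters. Versions, annotation release, strand setting and treatment of multi-mapped reads are not given in the sources used here, which limits genes with overlapping exons. The FPKM values were computed by the authors from the same counts by gene length and library total, and were used only to compare levels between genes.

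Counts were fitted over the whole table with edgeR 4.0.16 (filterByExpr, TMM, glmQLFit, glmQLFTest) in R 4.3.3. DESeq2 1.42.0 was the alternative. p-values measure the spread between libraries, each from 1 pool of mice, so differences between pools and between library preparations cannot be told apart. Both fits were also run on simulated counts of the genes kept by edgeR's filter. The simulation held no detection gap between libraries and left out the 14 markers below the filter, so it does not bear on those. CPM were TMM-scaled. An age with 0 counts was set to a floor of 3 counts over its libraries (0.0338 CPM at 3 m, 0.0322 CPM at 24 m). Exon overlaps were read from GENCODE vM21 and promoters from RefSeq, both on GRCm38. No other processing of reads was done.

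The members and the companion lists were chosen with earlier results of these data known. All members were named, with up to 4 of the most abundant genes of each companion list and the gate genes *Ptprc*, *Pecam1* and *Epcam*. The MHCII gate genes *H2-Aa*, *H2-Ab1* and *Cd74* are not described. *Flt1*, *Scgb3a2*, *Muc5b* and *Gpc3* were named after their values were seen. Alternatives were DESeq2, no filter, a stricter filter, another normalization, other class scores, a replicate block and leaving out each library. Totals of 28827930 to 32394985 counts put 3 counts in 1 library at 0.0891 to 0.107 CPM. Counting intervals cover counting error only.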

Additional observations from a re-analysis of the deposited data

How the results depend on the processing

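The count of genes called over the whole table was 0 with edgeR, 314 with DESeq2 and 207 with no filter on low counts. Leaving out 1 library each moved it between 0 and 85, the highest being without 3 m replicate 2, and moved the DESeq2 count between 94 and 650, the lowest being without 24 m replicate 2. Called markers numbered 0 with edgeR, 5 with DESeq2 and 4 with no filter (*Cdh5*, *Fn1*, *Msln* and *Cnn3*). Leaving out 1 library gave 0 to 2 with edgeR and 2 to 7 with DESeq2. The 2 edgeR markers came in the run with 85 calls over the whole table. DESeq2 reached 7 markers in the runs with 459 and 650 calls over the whole table, and 2 in the run with 94. Same-numbered libraries of the 2 ages did not deviate together (r of 0.0143, -0.0795 and -0.149 across genes), so the numbers were not taken as a pairing. With a replicate block, edgeR called 0 genes and 0 markers, and the log2 fold change of *Pdgfra* turned from -0.21 to 1.51.

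*Cdh5*, *Tie1*, *Msln* and *Cnn3* had no count in any younger library and counts in every older one. Their fold changes could therefore not reverse under any alternative. Of 153 fold changes of 17 markers under alternatives, these included, 144 kept their direction. That share was partly fixed in advance and is not read as robustness. The fold changes that did not keep their direction are given next. They were of genes whose ages overlap: leaving out 1 library each gave log2 fold changes of -0.48 to 0.77 for *Egfl7*, -0.47 to 3.96 for *Dcn*, -0.78 to 2.46 for *Pdgfra* and -1.62 to 0.71 for *Mgp*.

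The log2 ratio of the summed endothelial CPM was 1.11. It was 0.41 without replicate 2 of both ages, 0.70 to 1.44 on leaving out 1 library each (the lowest without 24 m replicate 2), and 4.10 without *Egfl7*, *Tek* and *Pecam1*. That of the fibroblast class was -0.10. It became 0.58 as a mean of log2(CPM + 1), 0.29 without *Gsn* and *Fn1*, 1.24 without its highest member, *Gsn*, -0.35 to 0.05 (0.0496, the only value above 0, without 24 m replicate 3) on leaving out 1 library each, and -0.44 without replicate 2 of both ages. The mural ratio was 3.29, 0.59 as a mean of log2(CPM + 1), and 2.02 without replicate 2 of both ages. The mesothelial ratio, a bound from the floor that covers counting error only, was 8.79. It was 7.01 without its highest member, *Msln*, and 7.29 without replicate 2 of both ages. The mean of log2(CPM + 1) of the class differed by 1.14. The runs without 3 endothelial genes and without replicate 2 of both ages were chosen after seeing the data. The causes were not tested.

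Leaving out 1 library left 13 to 16 markers higher in every 24 m library, against 11.0% to 15.6% of all genes. The limit that 0 counts allow, 3 counts over the 3 m libraries, is 0.0338 CPM. A marker with no count at 3 m could still have stood at a level up to this limit. Only 17 markers entered edgeR's fit, because the rest were too low.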

Other observations

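Among genes outside the list, fibrillar collagens and vimentin were read after their values were seen. *Col1a1* stood at 0.756, 3.38 and 2.43 CPM at 3 m and 2.56, 2.75 and 1.28 CPM at 24 m, with overlapping ages. *Col1a2* and *Col3a1* had no count in 3 m replicate 2, and reached 4.75 and 8.97 CPM in 24 m replicate 2. *Vim*, the intermediate filament of mesenchymal cells and leukocytes, was at 0, 1.32 and 0.790 CPM at 3 m and 6.27, 37.0 and 3.24 CPM at 24 m. Every 24 m library lay above every 3 m library, but neither edgeR (adjusted p = 0.677) nor DESeq2 (adjusted p = 0.251) called *Vim*. *Bgn*, the proteoglycan biglycan, was at 1.82, 0 and 3.26 CPM at 3 m and 10.3, 12.6 and 2.35 CPM at 24 m, with overlap through 24 m replicate 3. *Gpc3*, a heparan sulphate proteoglycan, went the other way, at 7.91, 8.64 and 9.14 CPM at 3 m and 4.96, 0.971 and 0.713 CPM at 24 m. It was not called by edgeR (adjusted p = 0.828) or DESeq2 (adjusted p = 0.245).

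The blood cell markers did not follow the list. They summed to 1.72, 37.5 and 3.35 CPM at 3 m and 29.8, 3.05 and 7.93 CPM at 24 m, highest in 3 m replicate 2 and 24 m replicate 1. The lungs had been rinsed of blood and red cells lysed before sorting, as far as the study's methods for AT2 isolation say.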
